A study of Mus musculus with 74 samples.

Results

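The regions described here are 3 large clusters of olfactory receptor genes on mouse chromosomes 2, 7 and 9, followed through 74 thin slices of embryonic stem cell nuclei. They were taken as the 40 kb windows of the mm9 assembly that lie fully inside chr2:85000001-90200000, chr7:109600001-112400000 and chr9:37520001-39800000, which gave 130, 70 and 57 windows, together 257 of the 68162 windows in the table. The choice used position and no measured value, but it was made with earlier results of these data known. The measurements come from genome architecture mapping (GAM), in which nuclei are cryosectioned, single nuclear profiles are cut out with a laser, and the DNA of each profile is amplified and sequenced to find which windows it holds. All 74 libraries hold a single nuclear profile (1NP) of 46C cells, an embryonic stem cell line labelled as strain 129/Ola and carrying a green fluorescent protein reporter in the Sox1 gene. They were grown with LIF on gelatin and moved to serum-free ESGRO medium 24 h before harvest, with no other treatment. The labels give 1 group, name 1 cell line and do not say that libraries came from separate cultures, so each p-value below measures only the spread between these libraries. Libraries are called by the names in their titles, such as f14e2.

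Olfactory receptors are G protein-coupled receptors of the sensory neurons of the nose, where each neuron settles on a single receptor gene and keeps the others silent. Most of the genes have a single coding exon, lie in long tandem arrays in AT-rich, repeat-rich stretches of the genome, and are not used in embryonic stem cells. In many cell types such arrays are found at the nuclear periphery as constitutively inactive chromatin, and in olfactory neurons arrays of different chromosomes gather in shared foci. Mouse receptors of class I, the class also found in fish, sit in a single cluster on chromosome 7, whereas the clusters on chromosomes 2 and 9 hold class II receptors. Expression was not measured in these libraries.

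The annotation (GENCODE vM1) placed 493 olfactory receptor (Olfr) genes inside the intervals, 39.4% of the 1251 that it lists, of which 428 were protein-coding and 65 were pseudogenes. The chr2 cluster held 267 of them, from Olfr987 at chr2:85171054-85179452 to the pseudogene Olfr1273-ps at chr2:90136092-90137016, or 51.3 per Mb. The chr7 cluster held 139, from Olfr543 at chr7:109625287-109626416 to Olfr686 at chr7:112351873-112352890, or 49.6 per Mb. The chr9 cluster held 87, from Olfr874 at chr9:37553721-37554727 to Olfr976 at chr9:39762343-39764554, or 38.2 per Mb. The genes nearest the cluster middles were Olfr1141, Olfr66 and Olfr26. An Olfr gene overlapped 118 of the 130 windows of the chr2 cluster, 56 of 70 on chr7 and 52 of 57 on chr9. Of other protein-coding genes, the chr2 cluster held 5 and the chr9 cluster held 2, while the chr7 cluster held 28, among them the β-globin genes and a block of Trim genes.

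The family is recognised by the peptide MAYDRY at the inner end of the third membrane-spanning segment, the stretch that meets the G protein. In letters it was searched on the coding strand of the longest annotated coding sequence of each gene as ATGGCNTANGANNGNTAN, where N is any base. This pattern, which also allows a few other residues, was found in 134 of 221 coding Olfr genes of the chr2 cluster (60.6%) and in 70 of 84 of the chr9 cluster (83.3%), but in 5 of 123 of the chr7 cluster (4.07%), and in 0 of 4529 other coding genes of the same chromosomes. Of the 134 chr2 matches, 131 translated as MAYDRY, 2 as MAYDCY and 1 as MAYDSY. With any residue at the third position (ATGGCNNNNGANNGNTAN), 71 of the 123 chr7 genes matched (57.7%), 41 of them as MAFDRY and 18 as MALDRY. The same pattern matched 169 of 221 chr2 genes (76.5%), 70 of 84 chr9 genes (83.3%) and 2 of the 4529 other coding genes. The sequences below, from the NCBIM37 reference that mm9 uses, are the stretch of 120 coding bases around the match in the single-exon gene nearest each cluster middle that held it, and are shown to let the family stretch be compared between the clusters. Olfr152 lies at chr2:87623005-87623124, Olfr26 at chr9:38662949-38663068 and Olfr594 at chr7:110368540-110368659, all on the plus strand. Olfr67, at chr7:110936352-110936471 on the minus strand, is the single-exon gene nearest the chr7 middle with any residue at the third position, and was added after the residue counts were seen. Capitals mark the matched bases, and the sequences run 5′ to 3′ along the gene.
Olfr152 (chr2 cluster, MAYDRY): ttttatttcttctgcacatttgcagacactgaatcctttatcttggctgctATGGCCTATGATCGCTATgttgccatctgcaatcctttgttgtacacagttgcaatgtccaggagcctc
Olfr26 (chr9 cluster, MAYDRY): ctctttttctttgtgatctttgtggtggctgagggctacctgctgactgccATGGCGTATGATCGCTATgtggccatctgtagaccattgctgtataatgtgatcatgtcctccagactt
Olfr594 (chr7 cluster, MAYDRY): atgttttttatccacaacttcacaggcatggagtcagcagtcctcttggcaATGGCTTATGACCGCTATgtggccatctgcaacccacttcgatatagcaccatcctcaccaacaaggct
Olfr67 (chr7 cluster, MAFDRY): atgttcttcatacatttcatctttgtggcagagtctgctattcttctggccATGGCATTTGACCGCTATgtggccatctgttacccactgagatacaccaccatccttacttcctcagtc

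The coding exons of the receptor genes were not the most repeated part of the clusters. Uniqueness was measured as the share of 50-base words, sampled every 10 bases, that occur once in the reference on either strand. Inside coding exons of Olfr genes 85.5% of words were unique in the chr2 cluster, 86.0% in the chr7 cluster and 87.8% in the chr9 cluster, against 81.8%, 80.9% and 86.4% in the rest of each cluster. Among the genes shown, 90 of 90 words of the Olfr152 coding sequence, 91 of 91 of Olfr67, 87 of 88 of Olfr594 and 70 of 88 of Olfr26 were unique. The clusters as a whole were less unique than their surroundings. The median window had 85.8% unique words on chr2, 82.6% on chr7 and 87.2% on chr9, whereas the median window of the 5 Mb flanks had 94.99%, 95.98% and 96.98%. Windows with under 90% unique words made up 66.2% of the chr2 cluster, 71.4% of the chr7 cluster and 63.2% of the chr9 cluster, against 31.6%, 28.4% and 24.0% of the flanks. The clusters were also poorer in G and C, with a median GC content of 36.7%, 39.2% and 37.4% against 40.98%, 43.3% and 43.8% in the flanks. No cluster window held unknown bases.

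Across the series a library held 5.27% ± 2.68 of all windows (SD, n = 74), from 0.0205% to 12.4%, and 5 libraries held under 1%. The table keeps calls and no reads, so the depth of each library is unknown and no interval for counting reads can be given. No pair of libraries above 1% shared more than 15.97% of its autosomal calls, so none was treated as a copy of another.

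The chr2 and chr9 clusters were found in the nuclear profiles at levels close to those of their surroundings, and the chr7 cluster at a lower value that did not pass the test. The chr2 cluster had 5.53% ± 11.4 of its windows positive per library (SD, n = 74), with a median of 0% and a highest value of 60%. Its flanks stood at 5.46% ± 9.61 and the rest of chromosome 2 at 5.92% ± 6.36. The chr7 cluster had the lowest level, 3.07% ± 7.56, with a median of 0% and a highest value of 35.7%, against 4.10% ± 6.95 in its flanks and 4.74% ± 4.78 in the rest of chromosome 7. The chr9 cluster had the highest level, 7.04% ± 14.6, with a median of 0% and a highest value of 64.9%, against 7.88% ± 11.3 in its flanks and 6.61% ± 6.36 in the rest of chromosome 9. The libraries of cluster and surroundings overlapped throughout, as most libraries missed each cluster and a few held a large piece of it.

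**Figure D1:**
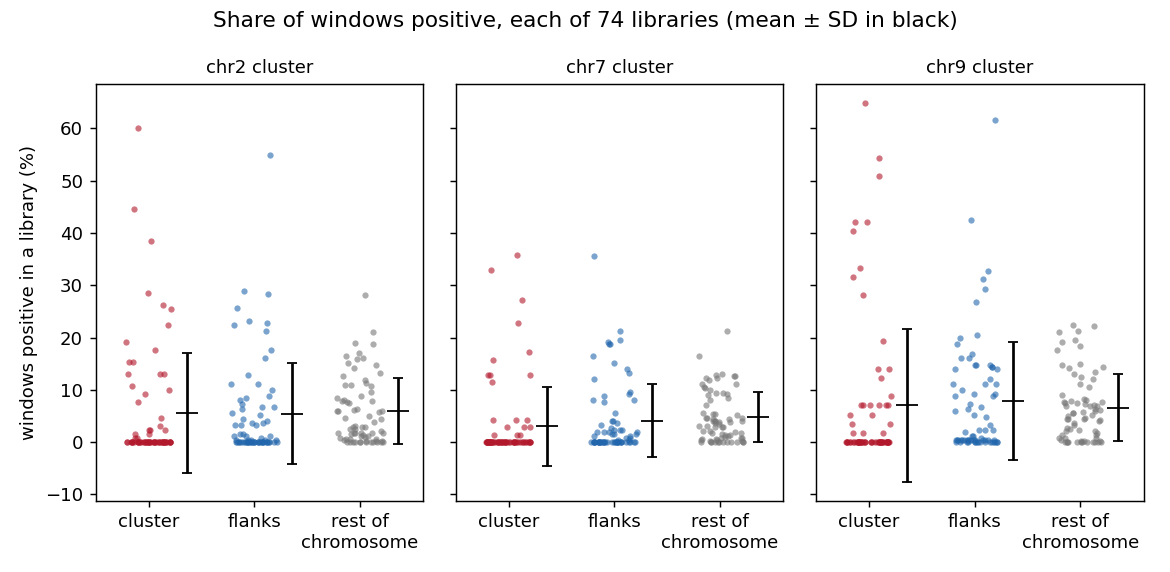
Percent of windows positive in each of the 74 libraries (points) for each cluster, its 5 Mb flanks and the rest of its chromosome, with the mean ± SD in black. Most points of each cluster sit at 0, and single libraries reach 60% on chr2, 35.7% on chr7 and 64.9% on chr9.

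None of the 8 differences in detection exceeded the spread between libraries. Over all clusters, with each difference weighted by the number of cluster windows, detection was 5.20% against 5.63% in the flanks, a difference of −0.430 percentage points (95% interval −1.80 to 0.936, n = 74, two-sided sign-flip permutation test over libraries, p = 0.541, adjusted p = 0.866 over the 8 comparisons). Without library f13b6 it was −0.114 and without f13b4 −0.668. Against the rest of the chromosomes the difference was −0.558 (interval −1.97 to 0.852, adjusted p = 0.866), or −0.285 without library f14b1. Within the libraries whose names start with f13 or f14, which the labels do not explain and which were treated as possible batches, the difference from the rest of the chromosomes was −1.23 in f13 and 0.0146 in f14. The lowest adjusted p was that of the chr7 cluster against the rest of chromosome 7, where the difference was −1.67 points (interval −3.40 to 0.0712, adjusted p = 0.509). It was −0.947 in the 34 f13 libraries and −2.28 in the 40 f14 libraries. Without windows that hold unknown bases the rest of chromosome 7 stood at 5.01%. The difference was then −1.94 (permutation test, p = 0.0324, adjusted p = 0.259). The cluster was lower than the rest of the chromosome in 59 libraries and higher in 10, a split to be read with the 55 libraries that held no window of it.

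The other Olfr genes of the genome gave a further reference. Outside the clusters, 464 windows of chromosomes 1 to 19 overlapped an Olfr gene, and 5.91% ± 4.05 of them were positive per library. The difference of the clusters together from these windows was −0.717 points, with an interval of −2.09 to 0.654 (permutation test, p = 0.310), and in the f14 libraries alone it was 0.150. The choice of this reference followed a first look at the data.

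Compared with one another in the same libraries, the clusters stood in the order chr7, chr2, chr9, but no neighbours in that order differed beyond their spread. Detection in the chr2 cluster was 2.46 points above the chr7 cluster (interval −0.863 to 5.78, adjusted p = 0.228 over 3 pairs, permutation test) and 1.51 points below the chr9 cluster (difference −1.51, interval −5.58 to 2.56, adjusted p = 0.475). The latter difference was −0.643 without library f14d4 and −2.28 without f14e2. Between the outer members of the order, chr7 minus chr9 was −3.97 points (interval −7.90 to −0.0465, p = 0.0506, adjusted p = 0.152). In the f14 libraries alone chr2 minus chr7 was 4.49 and chr7 minus chr9 −6.06, and in the f13 libraries alone they were 0.0711 and −1.52.

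Counted per window, the chr2 cluster was positive in 4.09 ± 1.71 libraries (SD over 130 windows, range 0 to 8), the chr7 cluster in 2.27 ± 1.50 (70 windows, range 0 to 6) and the chr9 cluster in 5.21 ± 1.87 (57 windows, range 1 to 10). The flanks were not symmetric. The lower flank of the chr2 cluster, on the side of smaller coordinates, was positive in 3.22 libraries per window and the upper flank in 4.86, so the cluster lay between them. On chr7 the lower flank stood at 3.35 and the upper flank, which carries most of the 75 Olfr genes that lie within 5 Mb of that cluster, at 2.71. On chr9 the flanks stood at 5.90 and 5.77, and a single window of the lower flank was positive in 44 libraries. Leaving out windows positive in over 15 libraries kept the sign of the chr9 difference from its flanks.

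**Figure D2:**
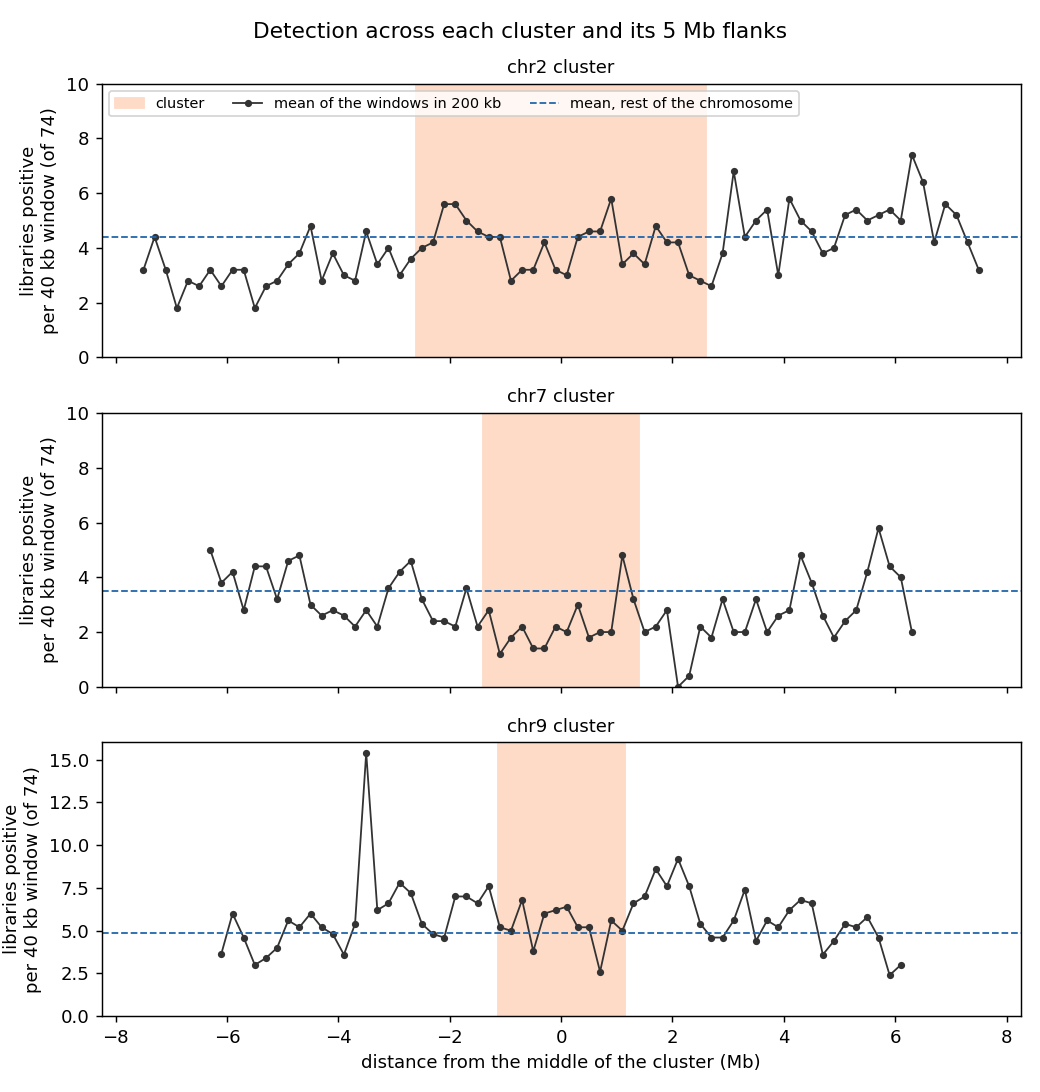
Mean number of libraries positive per 40 kb window (of 74), in steps of 200 kb, against the distance from the middle of each cluster in Mb; the shaded span is the cluster and the dashed line the mean of the rest of its chromosome. The chr7 cluster runs mostly below its dashed line at 3.50 libraries, the chr2 cluster runs on both sides of its line at 4.38, and the peak in the lower chr9 flank holds the window positive in 44 libraries.

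Stretches of the same length elsewhere on each chromosome showed how much such levels vary. Over 32 adjoining stretches of 5.2 Mb on chromosome 2, a window was positive in a median of 4.37 libraries (range 2.14 to 6.55) beside 4.09 in the cluster. Over 51 stretches of 2.8 Mb on chromosome 7 the median was 3.51 (quartiles 2.99 and 4.11) beside 2.27 in the cluster, and the lowest stretch had 0. Of these 51 stretches, 4 were lower than the cluster and 47 higher. Over 51 stretches of 2.28 Mb on chromosome 9 it was 4.77 (range 3.05 to 7.51) beside 5.21 in the cluster. The chr7 cluster thus lay under the lower quartile of its chromosome, and the chr2 and chr9 clusters lay between the quartiles of theirs (3.94 and 4.82 on chromosome 2, 4.02 and 5.58 on chromosome 9).

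A window that is positive in no library of 74 may still be detected in up to 4.05% of profiles. This limit is on detection and not on how many profiles hold its DNA. Of the 257 cluster windows, 10 were positive in no library (3.89%), beside a background of 3.2% of autosomal windows beyond the first 3 Mb. They fell unevenly, 4 in the chr2 cluster (3.08%), 6 in the chr7 cluster (8.57%) and 0 in the chr9 cluster. The rest of chromosome 7 had 12.5% of such windows and the chr7 flanks had 4.8%. Over the stretches of 2.8 Mb on chromosome 7 the median was 2.86%, with 38 of 51 stretches lower than the cluster and 12 higher. Unknown bases were held by 218 of the 3419 windows in the rest of chromosome 7, by 2 in the flanks and by 0 in the cluster. Their part in these shares was not tested. At the other end, 9 cluster windows were positive in at least 8 libraries (3.50%), beside a background of 8.03%, and 5 of them lay in the chr9 cluster. Over all 257 cluster windows both shares were close to or below the background.

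On chr2, 4 windows were found most often, each in 8 libraries. These were chr2:85560001-85600000 with Olfr1009, Olfr1010 and Olfr1012, chr2:87200001-87240000 with Olfr1121 and Olfr1122, chr2:88520001-88560000 with Olfr1195 and Olfr1196, and chr2:89240001-89280000 with Olfr1238, Olfr1239 and Olfr1240. Of the 4 windows found in none, 3 were almost wholly repeated sequence. These were chr2:89040001-89080000 with 16.5% unique words, chr2:90040001-90080000 with 0.475%, which holds Olfr1506, and chr2:90160001-90200000 with 0%. Most 50-base reads from these windows would have no unique place in the genome, and the part of this in the missing calls was not tested. The fourth, chr2:85040001-85080000, had 96.3% unique words and no annotated coding gene. Conversely, chr2:90000001-90040000, with 6.18% unique words, was positive in 2 libraries.

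On chr7 the windows found most often, each in 6 libraries, were chr7:112160001-112200000 with Olfr675 and Olfr676, and chr7:112320001-112360000 with Olfr685 and Olfr686. The windows found in none differed from those of chr2 in that 3 of the 6 had over 90% unique words. These were chr7:109840001-109880000 with Olfr557, Olfr558, Olfr33 and Olfr559 (94.4% unique), chr7:110080001-110120000 with Olfr573-ps1, Olfr574, Olfr575 and Olfr576 (95.3%), and chr7:111000001-111040000 (93.2%). The last holds Hbb-y, the β-globin gene of the early embryo, and Olfr66, the gene nearest the cluster middle. The adjoining window chr7:110960001-111000000, named after its value was seen because it holds the other β-globin genes Hbb-b1, Hbb-b2, Hbb-bh1 and Hbb-bh2, was positive in 3 libraries. The other windows found in none were chr7:110720001-110760000 with Olfr617 to Olfr620 (86.9% unique), chr7:111760001-111800000 with Olfr656, Olfr657 and Olfr658 (79.0%), and chr7:111400001-111440000 (47.1%). The last holds Trim34a and Trim5, members of a family of antiviral ubiquitin ligases.

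On chr9 the windows found most often were chr9:37880001-37920000 with Olfr887 and Olfr888, in 10 libraries, and 4 windows in 9 libraries each. The latter were chr9:38240001-38280000 with Olfr902 and Olfr904, chr9:38560001-38600000 with Olfr920 and Olfr921, chr9:38720001-38760000 with Olfr930, and chr9:39560001-39600000 with Olfr968. Each window of this cluster was positive in at least 1 library.

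Windows with an Olfr gene were found more often than the few without. The 226 windows with a gene were positive in 4.03 ± 1.960 libraries (SD over windows) and the 31 windows without in 2.48 ± 1.69. Weighted by cluster, 5.37% ± 7.09 of the former and 3.56% ± 5.20 of the latter were positive per library (SD, n = 74). The difference of 1.81 points (interval 0.611 to 3.01) was positive in 38 libraries, negative in 13 and 0 in 23 (two-sided sign-flip permutation test, p = 0.00175). It was 2.44 in the f14 libraries (p = 0.0142) and 1.08 in the f13 libraries (p = 0.0599). In windows with at least 90% unique words, of which 9 lacked a gene, the difference was 0.882 (p = 0.295). The means lay 4.28 against 2.25 libraries in the chr2 cluster, where 3 of the 12 windows without a gene had under 20% unique words, 2.32 against 2.07 on chr7, and 5.31 against 4.2 on chr9. What part of the difference goes with repeated sequence was not tested beyond this.

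Across cluster windows the number of positive libraries was weakly related to uniqueness. Pearson's r was 0.279 on chr2 (130 windows), 0.267 on chr7 (70 windows) and 0.245 on chr9 (57 windows), and Spearman's rho was −0.0174, 0.258 and 0.190. Neighbouring windows share the same slices, so these are descriptions without a test. On chr2 the mean was 3.79 libraries under 80% unique words, 4.58 from 80% to 90%, and 3.82 at 90% and above. What the few almost wholly repeated windows add to r was not tested. On chr7 those means were 1.61, 2.91 and 2.50 libraries, and on chr9 they were 4.92, 4.79 and 5.86. Detection of the clusters at 90% and above was thus still lowest on chr7 and highest on chr9.

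**Figure D3:**
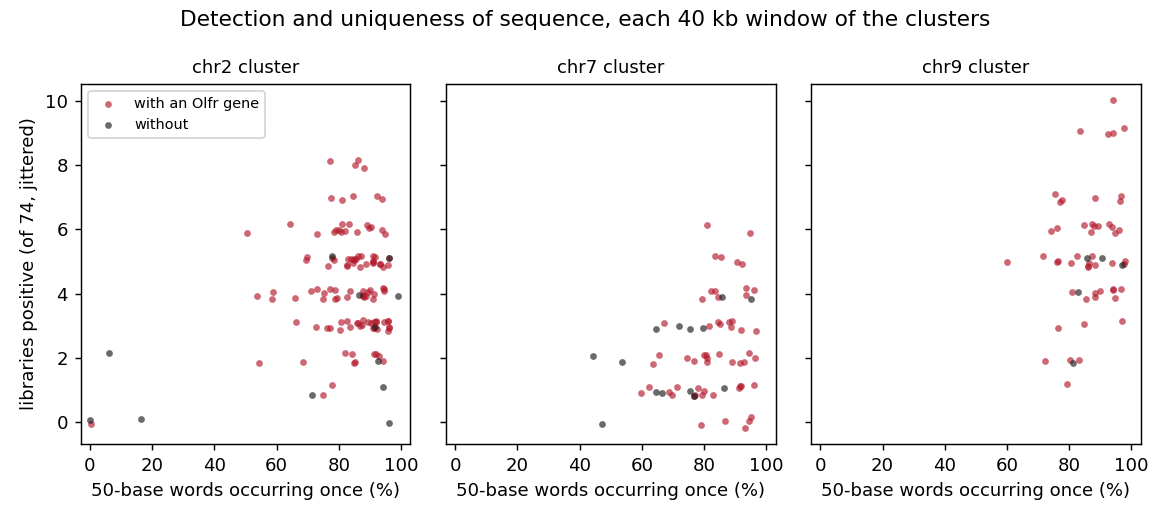
Number of libraries (of 74, with a small vertical jitter) in which each 40 kb window was positive against the percent of its 50-base words that occur once in the reference, for windows with (red) and without (black) an Olfr gene. The 3 repeated windows of chr2 at 0 libraries lie at 16.5%, 0.475% and 0% unique words, whereas most windows of all clusters lie above 60%.

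Most libraries held no window of a given cluster. Of 74 libraries, 27 held at least 1 window of the chr2 cluster, 19 of the chr7 cluster and 27 of the chr9 cluster, and of these 7, 9 and 7 held at most 3 windows. At least 25% of the windows were positive in 6, 3 and 9 libraries, at least 50% in 1, 0 and 3, and no library held every window of a cluster. The 3 fullest libraries gave 34.96% of all positive calls on chr2, 42.1% on chr7 and 32.7% on chr9. Over the stretches of equal length on the same chromosomes the medians of that share were 29.6%, 34.3% and 32.96%. The medians of libraries with at least 1 positive window were 31, 28 and 28. Fewer such libraries than in the cluster were found for 3 of 32 stretches on chromosome 2. The same held for 2 of 51 on chromosome 7 and 21 of 51 on chromosome 9.

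For the chr2 cluster the fullest library was f14e2, with 78 of 130 windows positive in 16 runs, the longest of 640 kb. Next came f14d2 with 58 windows in 30 runs of at most 240 kb, and f13b4 with 50 windows in 17 runs of at most 400 kb. These libraries reached over 4.60, 4.36 and 4.28 Mb from first to last positive window, and 67.8%, 53.2% and 46.7% of the windows in that span were positive. All 3 thus spanned most of the cluster with gaps.

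For the chr7 cluster the fullest libraries were f13c4 with 25 of 70 windows in 15 runs, f13d2 with 23 in 9 runs, and f14e7 with 19 in 13 runs. They spanned 2.80, 2.64 and 2.76 Mb, nearly the whole cluster, but were positive in 35.7%, 34.8% and 27.5% of that span, and their longest runs were 120, 240 and 200 kb. The longest run of this cluster, 320 kb, was found in another library, f13g4, which held 11 windows. The genome coverage of f14e7 was 3.56%, below the mean of the series, while that of f13c4 and f13d2 was 6.16% and 7.92%.

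For the chr9 cluster f14d4 held 37 of 57 windows in 13 runs, f13e6 held 31 in 12 runs and f13f1 held 29 in 6 runs. The longest runs were 360, 240 and 360 kb, and 66.1%, 60.8% and 67.4% of the spans of 2.24, 2.04 and 1.72 Mb were positive. These fullest libraries were thus filled more densely over their spans than the fullest libraries of the chr7 cluster. They were picked for their many positive windows, so a dense span goes partly with the choice. At ranks 4 to 10 of the chr9 cluster the positive share of the span ran from 20% in f14d2 to 66.7% in f14a2.

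Runs of positive windows were short everywhere. Their median length was 1 window in each cluster, in its flanks and in the rest of its chromosome. The mean was 1.956 windows in the chr2 cluster against 2.11 in its flanks and 2.13 in the rest of the chromosome, 1.64 in the chr7 cluster against 1.98 and 1.86, and 2.15 in the chr9 cluster against 2.01 and 2.102. Positive windows with no positive neighbour were 31.02%, 41.5% and 24.6% of calls in the 3 clusters, against 25.6%, 29.6% and 28.9% in the flanks. Runs of at least 5 windows held 25.4% of the calls of the chr2 cluster, 11.9% of those of the chr7 cluster and 33.7% of those of the chr9 cluster, against 31.1%, 30.9% and 27.02% in the flanks. By these values the chr7 cluster was the most broken up. These measures are not scaled for detection, which was also lowest there, at 3.07% against 5.53% on chr2 and 7.04% on chr9. The part of detection in these values was not tested.

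The continuity of the calls was tested as concordance, the percent of positive calls in adjacent pairs that were matched by a positive neighbour. It was 49.1% in the chr2 cluster, 39.5% in the chr7 cluster and 54.2% in the chr9 cluster. The chr2 value was 3.89 points lower in value than its flanks (difference −3.89, interval −15.1 to 7.34) and the chr9 value 3.59 points higher (interval −4.62 to 11.8), with adjusted p = 0.511 for both (permutation test over libraries, 8 comparisons). The chr2 difference was −8.10 without library f14e2 (adjusted p = 0.0961) and −1.77 without f13b6, and the chr9 difference was 2.03 without f13f1. The chr7 cluster differed from its flanks, at 49.9%, by −10.4 points (interval −18.9 to −1.94, p = 0.0251, adjusted p = 0.201), and from the rest of the chromosome, at 46.3%, by −6.85 points (interval −15.4 to 1.70, adjusted p = 0.279). Neither passed the adjusted threshold of 0.05. Concordance, which also measures linkage below, is not scaled for detection. Detection was lowest in the chr7 cluster, and its part in the chr7 values was not tested.

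The chr7 concordance was not even across the libraries. Against the flanks the difference was −11.8 points in the f13 and −12.1 in the f14 libraries. Against the rest of the chromosome it was −4.64 and −14.8. The latter had adjusted p = 0.0405 (permutation test) over the 8 comparisons in those libraries alone. Over all 74 libraries, 10 had a positive adjacent pair in this cluster. The f14 libraries among them were f14e7, f14f4 and f14d7. Without library f13d2 the differences were −12.6 (adjusted p = 0.0441) and −10.2 (adjusted p = 0.0338), so this library decided on which side of the threshold they fell. The chr7 cluster had 20 windows with at least 90% unique words, and only some of these adjoin. In such windows its concordance was 27.8% and the difference from the flanks −24.7 (permutation test, adjusted p = 0.129). With flanks freed of Olfr windows, a setting added after the data had been seen, the difference was −11.4 (adjusted p = 0.0580). The values moved with other settings. Setting isolated calls negative removes calls without a positive neighbour, which raises concordance by construction. The differences were then −3.16 from the flanks and −1.83 from the rest of the chromosome (permutation test, adjusted p = 0.979 for both). In 200 kb windows they were −6.79 and −8.24 (adjusted p = 0.905 for both). Over all clusters concordance was 47.6%, against 51.6% in the flanks (difference −4.00, interval −9.89 to 1.88, adjusted p = 0.385) and 51.1% in the rest of the chromosomes (adjusted p = 0.419).

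Linkage fell with distance in the chr2 and chr7 clusters, and in the chr9 cluster up to 1 Mb. In the chr2 cluster the concordance of window pairs was 40.2% ± 7.44 (jackknife SE over libraries) at 0.2 Mb, 31.4% ± 4.93 for pairs 1 Mb apart, 26.05% ± 5.71 for 2 Mb and 20.2% ± 7.98 for 4 Mb, against 41.6%, 28.6%, 21.9% and 18.7% in the rest of the chromosome. Without library f14e2 the differences from the rest of the chromosome were −7.08 points at 0.2 Mb, −0.628 at 1 Mb and 0.0747 at 2 Mb. In the chr9 cluster it was 43.8% ± 5.54 at 0.2 Mb, 29.8% ± 6.37 at 1 Mb and 33.8% ± 12.1 at 2 Mb, where 7 pairs fit into the cluster, against 40.8%, 28.2% and 22.2%. Without library f14d4 the chr9 value at 2 Mb was 23.3%. In the chr7 cluster it was 26.4% ± 4.17, 18.8% ± 4.80 and 14% ± 8.91 at the same distances, against 35.4%, 23.7% and 18.6%. The 2 Mb value rested on 2 libraries with a positive pair, and without f13c4 it was 7.23%, a difference of −11.6 from the rest of the chromosome in place of −4.64. The chr7 values were the lowest of the 3 clusters at each of these distances, but at 2 Mb the chr7 flanks, at 12.7%, were lower still.

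Of the 12 comparisons of linkage with the rest of the chromosomes, 0 passed the threshold after adjustment, and 1 had an unadjusted p below 0.05 in the permutation test over libraries. That was the chr7 cluster at 0.2 Mb, with a difference of −8.99 points (interval −17.0 to −1.03, p = 0.0231, adjusted p = 0.278). In the f14 libraries alone it was −11.0 (adjusted p = 0.0424) and in the f13 libraries −8.78 (adjusted p = 0.839). It was −3.38 in windows with at least 90% unique words (adjusted p = 0.748) and −16.0 with isolated calls set negative (adjusted p = 0.190). At 2 Mb the chr7 difference was −19.7 in the f14 libraries (adjusted p = 0.0366), where none of the 20 pairs of windows was positive together, and had the opposite sign in the f13 libraries (2.73), with at least 90% unique words (1.39) and with isolated calls set negative (0.297). Over all clusters the differences were −2.49 points at 0.2 Mb (interval −9.97 to 4.99), 0.449 at 1 Mb (−5.55 to 6.45) and 3.39 at 2 Mb (−5.67 to 12.5). Without library f14e2 they were −5.17, −1.19 and 1.32, and in windows with at least 90% unique words −4.02, 10.9 and 8.11, where the lowest adjusted p of the 3 was 0.689.

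**Figure D4:**
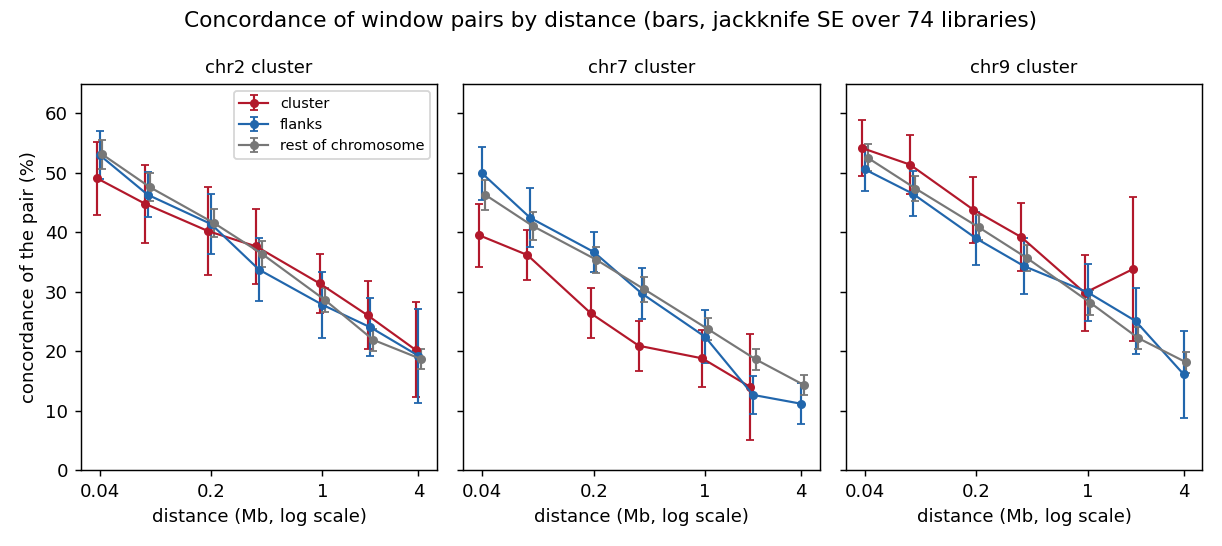
Concordance of pairs of windows (%) against their distance (Mb, log scale) in each cluster, in its flanks and in the rest of its chromosome, with jackknife SE over the 74 libraries. The chr7 cluster lies below the rest of its chromosome at each distance from 39.5% at 0.04 Mb to 14% at 2 Mb, with bars that separate at 0.2 and 0.4 Mb, and the bars of the chr2 and chr9 clusters overlap those of the rest of their chromosomes.

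Normalised linkage disequilibrium (D′) sets the co-segregation of 2 windows against the product of their detection frequencies. As a description, D′ was also low in value for the chr7 cluster. At 0.04 Mb its mean was 0.550 in the chr2 cluster, 0.327 in the chr7 cluster and 0.544 in the chr9 cluster, against 0.540, 0.413 and 0.532 in the rest of the chromosomes. At 1 Mb it was 0.144, −0.357 and 0.0988, against means of 0.0705, −0.0449 and 0.0818. The chr7 cluster had the lowest mean at both distances. A pair of windows never positive together takes the lowest value of D′, and few positive libraries per window make such pairs more likely. Windows of the chr7 cluster were positive in 2.27 libraries on average, against 4.09 on chr2 and 5.21 on chr9. The part of this in the low D′ means was not tested. In the chr2 cluster D′ at 0.04 Mb lay above the rest of the chromosome, whereas concordance, at 49.1% against 53.1%, lay below it.

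Other groups of Olfr genes on the same chromosomes allowed a look at longer distances, again without a test. The chr2 cluster and a group of 23 Olfr windows between 36.12 and 37.2 Mb, on average 50.97 Mb away, had a concordance of 18.1% ± 7.32 (jackknife SE), beside 11.4% over pairs of windows at the same distances. For the group of 24 windows from 111.04 to 112 Mb, 23.9 Mb away, it was 19.2% ± 7.33 beside 13.4%. The chr9 cluster and 32 Olfr windows from 18.52 to 20.16 Mb, 19.3 Mb away, had 18.01% ± 4.57 beside 13.7%. These 3 values lay above the reference for their distance by about 1 SE.

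On chr7 the direction of the values was the opposite. With 14 Olfr windows from 92 to 93.88 Mb the concordance was 6.63% ± 2.30 beside 11.2%, with 12 windows from 147.32 to 147.92 Mb it was 5.03% ± 3.17 beside 8.78%, and with the 42 windows that follow the cluster from 112.4 to 116.04 Mb it was 12.9% ± 3.43 beside 15.7%. The lower detection of the chr7 cluster moves with these values, and its part in them was not tested. Per window, the chr9 cluster was positive in 5.21 libraries against 4.89 in the rest of its chromosome, and the chr2 cluster in 4.09 against 4.38. The part of detection in the chr2 and chr9 values above was not tested either.

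Co-segregation in trans was counted first as the libraries that held windows of several clusters. No window of any cluster was positive in 23 libraries, 33 libraries held windows of 1 cluster, 14 of 2 and 4 of all 3. The chr2 and chr7 clusters were both present in 6 libraries, chr2 and chr9 in 13, and chr7 and chr9 in 7. At least 10% of the windows of both were positive in 1, 5 and 2 libraries, and at least 25% of both in 0 libraries for each pair. With so few libraries that full, these counts are a description.

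Averaged over all pairs of windows, the chr2 and chr7 clusters co-segregated in 0.0453% of libraries, against 0.225% computed from the shares of the clusters within 5 strata of library coverage. The ratio was 0.201 (interval −0.0695 to 0.472, two-sided permutation test within strata, p = 0.139, adjusted p = 0.387 over 3 pairs). For chr2 and chr9 the values were 0.509% and 0.422%, a ratio of 1.21 (interval 0.301 to 2.11, adjusted p = 0.715). For chr7 and chr9 they were 0.0840% and 0.232%, a ratio of 0.362 (interval −0.209 to 0.933, adjusted p = 0.387). No permutation test passed the threshold, although the jackknife intervals of both pairs with chr7 lay below a ratio of 1. The interval and the test thus differ for these pairs.

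Within the possible batches the ratios were 0.610 in the f13 and 0.118 in the f14 libraries for chr2 and chr7, 0.957 and 1.05 for chr2 and chr9, and 0.366 and 0.359 for chr7 and chr9. Single libraries carried these sums. Library f13b2, with 13.1% of the chr2, 12.9% of the chr7 and 31.6% of the chr9 windows, gave 50.2% of the chr2 and chr7 co-segregation and 65.3% of that of chr7 and chr9. Without it the ratios fell to 0.110 and 0.140, and the adjusted p of either pair was at least 0.192 without any 1 library. For chr2 and chr9, f14a2 with 22.3% and 42.1% of the windows gave 24.96%, and f14d2 with 44.6% and 19.3% gave 22.9%.

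The same ratio over other stretches of equal length showed its spread in these libraries. Over 1568 pairs of stretches of chromosomes 2 and 7 it had a median of 1.09 with quartiles of 0.779 and 1.42, over 1632 pairs of chromosomes 2 and 9 a median of 1.09 with quartiles of 0.811 and 1.44, and over 2499 pairs of chromosomes 7 and 9 a median of 0.878 with quartiles of 0.606 and 1.22. The flanks of the clusters had ratios of 1.02, 1.71 and 0.538. The ratios of the 2 pairs with chr7 lay below the lower quartile, with 17 of the 1568 pairs of stretches lower than chr2 and chr7 and 220 of the 2499 lower than chr7 and chr9. The ratio of chr2 and chr9 lay between the quartiles. All these pairs come from the same 74 libraries, so their ranks are a description.

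**Figure D5:**
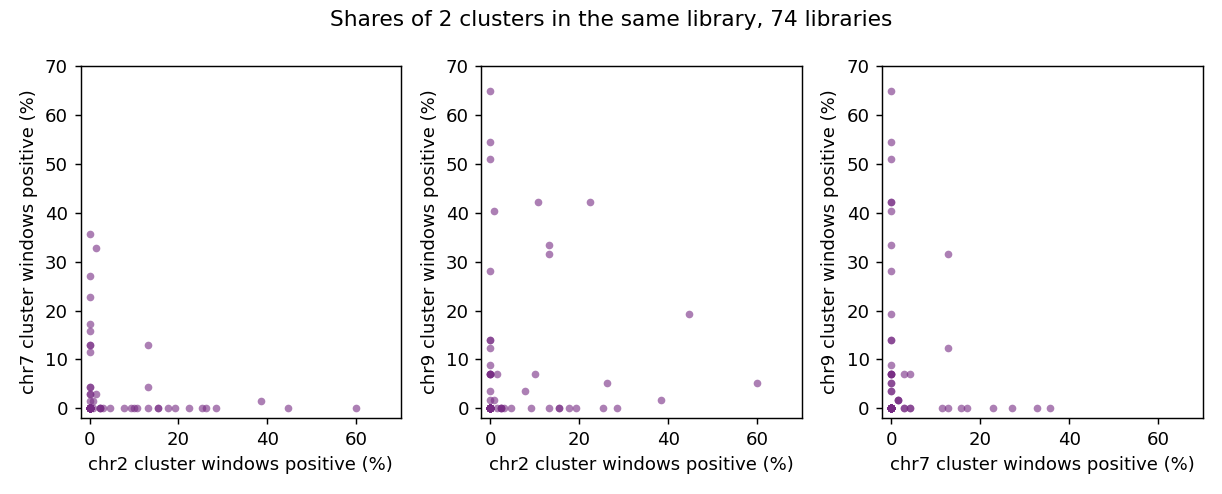
Percent of windows positive in 1 cluster against another for each pair of clusters, with each point 1 of the 74 libraries. Most libraries lie on an axis, holding 1 cluster or none, and no library holds at least 25% of both members of a pair.

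The share of a cluster held by a library had no relation to how much of the genome the library held that passed adjustment. Against the coverage of the autosomes other than 2, 7 and 9, Pearson's r over the 74 libraries was 0.128 for the chr2 cluster (permutation p = 0.276, adjusted p = 0.414 over 12 relations), 0.100 for the chr7 cluster (p = 0.394, adjusted p = 0.458) and 0.273 for the chr9 cluster (p = 0.0198, adjusted p = 0.238). Spearman's rho was 0.209 (p = 0.0746, adjusted p = 0.224), 0.142 (p = 0.225, adjusted p = 0.386) and 0.0808 (p = 0.496, adjusted p = 0.661). After dropping the 2 libraries whose coverage lay farthest from the median, r was 0.184, 0.149 and 0.223. For the chr7 cluster r was 0.294 in the f13 and −0.120 in the f14 libraries, for chr2 it was 0.168 and 0.123, and for chr9 0.274 and 0.285. The highest rank correlations within a prefix were those of the chr7 cluster in the f13 libraries (rho = 0.468, permutation p = 0.00564, adjusted p = 0.0677) and of the chr2 cluster in the f14 libraries (rho = 0.329, permutation p = 0.0395, adjusted p = 0.224).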

How the data were processed

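The deposited table gives, for each 40 kb window of mm9 and each of 74 1NP libraries, the authors' call of positive (1) or negative (0). The submitters' processing notes name Bowtie2 2.1 and mm9. For multiplex libraries the methods describe duplicate removal and calling in GAMtools above a fixed number of reads, and whether this holds for 1NP libraries is not stated. Such a threshold turns shallow stretches into gaps. Repeated sequence, where reads have no unique place, can lower calls. All 74 columns matched a sample by title.

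Chromosome lengths of the NCBIM37 reference equalled the last window ends of chromosomes 2, 7 and 9, and GENCODE vM1 gave genes. Flanks were 5 Mb on each side, and the rest of the chromosome left out clusters, flanks and the first 3 Mb. Libraries are the replicates. Sign-flip and stratified permutation tests were two-sided with 100000 resamples (smallest p 1e-05), intervals are 1.96 jackknife SE over libraries, and p-values were adjusted by Benjamini-Hochberg within families of 8, 8, 12, 3 and 3 tests. Concordance contrasts were tested on per-library contributions. Scripts ran in Python 3.11.15 with numpy 2.4.6, scipy 1.17.1 and pandas 2.3.3, and were tested on simulated data. The clusters, lists and tests were chosen with earlier results of these data known. Named were, per cluster, the 2 windows positive in most libraries (tied windows were added after their values were seen), up to 5 positive in none, the 3 fullest libraries, and the first, last and middle Olfr gene. The 6 chr7 windows positive in none exceed that limit and were named after their values were seen. Alternatives covered libraries, name prefixes, windows, flank length, isolated calls, window size, scaling and strata.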

Additional observations from a re-analysis of the deposited data

How the results depend on the processing

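Over 36 results, 348 alternatives gave 304 values with the direction and side of the threshold of the reported value. Most exceptions passed no test under either setting, and the cause was not tested. Not all lay near 0, as chr9 linkage at 2 Mb was 11.6 points in all libraries and −1.78 in the f13 libraries.

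Unless another reference is named, values here are cluster minus rest of the chromosome, in percentage points. In the f13 libraries detection of the chr2 cluster minus flanks was −1.71, and that of the chr9 cluster minus the rest of its chromosome was −1.35. Linkage in these libraries was −3.48 (chr2) and −2.07 (all clusters) at 1 Mb. At 2 Mb it was −3.71 (chr2), 2.73 (chr7), −1.78 (chr9) and −1.53 (all). The chr2 and chr9 ratio there was 0.957, and the Olfr window difference was 1.08 (sign-flip permutation test, p = 0.0599). In the f14 libraries detection minus flanks was 0.0218 (chr9) and 0.475 (all clusters), detection was 0.407 (chr2), 0.0146 (all) and 0.150 against other Olfr windows, linkage at 0.2 Mb was 1.37 (chr2) and −2.41 (chr9), linkage at 1 Mb was −1.12 (chr9), and the chr7 concordance was −14.8 (adjusted p = 0.0405, permutation test). With at least 90% unique words, detection minus flanks was −0.815 (chr2) and 0.0843 (chr9), linkage was −2.11 (chr9, 0.2 Mb), 22.2 (chr7, 1 Mb) and 1.39 (chr7, 2 Mb), and the Olfr window difference was 0.882 (p = 0.295). With flanks of 2 Mb, detection minus flanks was −0.0239 (chr2), −0.255 (chr7) and −1.80 (chr9). Concordance minus these flanks was −7.33 (chr2), −0.542 (chr9) and −6.61 (all). With flanks of 10 Mb, detection minus flanks was −0.235 (chr2), −1.77 (chr7, adjusted p = 0.255, permutation test), −0.245 (chr9) and −0.656 (all). With isolated calls set negative, chr2 detection minus flanks was −0.244, chr9 concordance −0.271, and linkage 0.127 (chr2, 0.2 Mb), −0.303 (all, 1 Mb) and 0.297 (chr7, 2 Mb). In 200 kb windows chr9 concordance was −0.661. In windows under 40% GC, chosen after the data were seen, detection was 0.342 (all, minus flanks) and 0.280 (chr2), concordance was 2.45 (chr2) and −0.468 (chr9) minus flanks, 1.07 (chr2) and 0.130 (all), and linkage at 0.2 Mb was 2.00 (chr2) and 0.685 (all).

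Leaving out each library in turn, these differences or ratios moved by over 1.5 times, changed sign or changed a call, given with the libraries that gave the lowest and highest value. Detection minus flanks ranged from −0.400 to 0.643 (chr2, f13b4 and f13b6), −1.23 to −0.474 (chr9, f14a2 and f14e2) and −0.668 to −0.114 (all, f13b4 and f13b6). Detection ranged from −0.963 to −0.0465 (chr2, f14e2 and f14b1), −0.160 to 0.724 (chr9, f13e6 and f14b1) and −0.816 to −0.285 (all, f14e2 and f14b1), and that of chr2 minus chr9 from −2.28 to −0.643 (f14e2 and f14d4). Concordance minus flanks ranged from −8.10 to −1.77 (chr2, f14e2 and f13b6), −12.6 to −8.61 (chr7, f13d2 and f13a3) and 2.03 to 4.94 (chr9, f13f1 and f14e2). Concordance ranged from −8.52 to −2.31 (chr2, f14e2 and f14b1), −10.2 to −5.24 (chr7, f13d2 and f13a3), −0.421 to 3.12 (chr9, f13f1 and f14f7) and −5.67 to −2.28 (all, f14e2 and f14b1). Linkage at 0.2 Mb ranged from −7.08 to 0.381 (chr2, f14e2 and f14b1), 0.544 to 4.45 (chr9, f13e6 and f14d2) and −5.17 to −1.15 (all, f14e2 and f14b1). At 1 Mb it ranged from −0.628 to 4.41 (chr2, f14e2 and f14b1), −7.54 to −2.86 (chr7, f14f4 and f13g4), −1.35 to 3.49 (chr9, f13e6 and f13b6) and −1.19 to 1.68 (all, f14e2 and f14b1). At 2 Mb it ranged from 0.0747 to 5.80 (chr2, f14e2 and f14b1), −11.6 to −1.96 (chr7, f13c4 and f13g4), 2.28 to 15.3 (chr9, f14d4 and f13f1) and 1.32 to 4.60 (all, f14e2 and f14b1). The ratio ranged from 0.110 to 0.259 (chr2 and chr7, f13b2 and f14e2) and 0.140 to 0.446 (chr7 and chr9, f13b2 and f13f1). The calls that changed were those of chr7 concordance without f13d2.

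No paired analysis was possible because the labels give 1 group, so no samples pair across groups. Regions were compared within each library. With 74 libraries and a cluster present in at most 27, intervals were wide, and a difference that passed no test is not shown to be 0. The depth is unknown, so gaps from few reads and gaps in the DNA of a slice cannot be told apart.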
